A study of Rattus norvegicus with 20 samples.

Results

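Hydrocortisone was compared with no hydrocortisone in the livers of male rats that all received BGZ_L powder, which makes 10 of the 20 libraries of the series. The 5 KYDS+BGZ_L rats received hydrocortisone at 25 mg/kg together with BGZ_L powder at 0.9 g/kg, and carried the disease label kidney-yang deficiency syndrome. The 5 BGZ_L rats were labelled healthy and took the same powder dose (0.9 g/kg) alone. The series title ties the powder to Psoraleae Fructus, and both groups received it, so it is common to both sides of the difference. CON rats (0.5% CMC-Na) and KYDS rats (hydrocortisone at 25 mg/kg) were used for the spread between rats and for 1 further contrast, the hydrocortisone effect without BGZ_L. The sources used here do not state strain, age, days of dosing or the hour at which tissue was taken. Of 32883 genes in the table, 11958 had a scaled TPM (a length- and depth-normalised expression unit, scaled between libraries) of at least 0.5 in at least 5 of the 20 libraries and were tested.

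Hydrocortisone is the drug form of cortisol, a glucocorticoid. Glucocorticoids bind the receptor encoded by Nr3c1, which moves to the nucleus, binds DNA and changes transcription of genes of glucose output, amino acid breakdown, inflammation and the liver clock. The liver clock is a feedback loop in which CLOCK and BMAL1 (encoded by Arntl) switch on the Period, cryptochrome, Nr1d1 and Dbp genes through E-box elements, the Period and cryptochrome proteins then hold CLOCK and BMAL1 back, NR1D1 represses Arntl through ROR elements, and DBP, TEF and HLF drive further genes through D-box elements.

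The libraries differed in how much of the signal came from the 13 mitochondrially encoded genes. Their share of TPM was 39.6%, 74.3%, 81.9%, 61.8% and 79.3% in BGZ_L 1 to 5 and 26.6%, 70.2%, 56.8%, 35.1% and 55.7% in KYDS+BGZ_L 1 to 5. The groups overlapped and the shares did not differ past the threshold (exact permutation p = 0.135, two-sided, 5 against 5, and 0.18 adjusted over 4 library measures; the smallest p the design allows is 0.00794). Without BGZ_L 1 the difference was -25.4 percentage points (exact permutation p = 0.0397). BGZ_L 3 had the lowest scaling factor of the 10 libraries (0.348), and BGZ_L 1 had 20.6% of its TPM in ribosomal RNA genes. Hepatocyte markers were present in every library, with a summed level of 4664 to 5409 scaled TPM over 11 genes in BGZ_L and 8484 to 43390 in KYDS+BGZ_L. Depth is unknown, since TPM keeps no read totals.

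Across the transcriptome 2058 of the 11958 genes passed (17.2%, limma, two-sided, Benjamini-Hochberg adjusted p under 0.05), of which 1043 were higher (8.72%) and 1015 lower (8.49%) with hydrocortisone. Of these, 1629 differed at least 2-fold. Counts for the gene lists below stand beside the shares of 17.2%, 8.72% and 8.49% over all genes. The median over all tested genes was 0.06 log2, and 3852 genes had an unadjusted p under 0.05. In 1568 genes (13.1%) the 5 rats of one group lay entirely above the 5 of the other. The count was 1339 when BGZ_L 3 was left out, 1139 when KYDS+BGZ_L 1 was, and 1103 when KYDS+BGZ_L 4 was, and 981 of the 2058 kept their call and direction whichever of the 10 libraries was left out. Without scaling the median of all genes moved to 0.61 and the split became 1580 higher and 233 lower, and with TPM over nuclear genes only it was 358 higher and 219 lower with a median of 0.11. With the nuclear to mitochondrial ratio of each library as a covariate 668 genes passed.

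Per2 and Dbp, both clock genes, had the smallest adjusted p of the genes tested, together with Dipk2a. Of 25 tested genes in 3 clock lists, 2 were higher, 11 were lower and 12 did not pass, with a median of -0.85 log2 against 0.06 over all genes. The hour at which tissue was taken is not stated. For genes that cycle over the day, treatment and a difference in hour between groups therefore cannot be told apart. The split was 1 or 2 higher and 10 or 11 lower whichever of the 10 libraries was left out, 1 higher and 11 lower without BGZ_L 3 and CON 2, 1 higher and 10 lower with the mitochondrial covariate, 2 and 10 with nuclear TPM, 1 and 11 with median-ratio scaling, and 4 and 5 without scaling.

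Dbp, a D-box transcription factor that is among the most strongly cycling genes of the liver, stood at 79.4, 55.8, 59.9, 116 and 90.9 scaled TPM in BGZ_L 1 to 5. It stood at 3.76, 3.82, 2.68, 2.92 and 3.27 in KYDS+BGZ_L 1 to 5. Every rat given hydrocortisone was below every rat that was not, and the group means were 3.29 ± 0.503 and 80.4 ± 24.5 (SD, n = 5). The log2 fold change was -4.37 ± 0.38 (SE, limma adjusted p = 1.53e-06). Tef, a D-box factor of the same family, went from 19.2 ± 4.24 to 5.24 ± 1.37 scaled TPM (-1.78 ± 0.20, adjusted p = 3.59e-05), again without overlap. Hlf, the other member of that family, had values of 3.05 to 9.26 and 3.44 to 7.02 and did not pass (-0.41, adjusted p = 0.32).

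The Period genes, which encode the repressors of the loop, were lower together. Per2 was at 15.7, 19.5, 13.9, 18.0 and 8.51 scaled TPM in the BGZ_L rats and at 0.878, 0.908, 0.454, 0.499 and 0.927 in the KYDS+BGZ_L rats. The groups were far apart, with a fold change of -3.63 ± 0.30 log2 (adjusted p = 8.6e-07). Per3 differed by -2.40 ± 0.47 (adjusted p = 0.00343) and Per1 by -1.36 ± 0.34 (adjusted p = 0.0106), both without overlap. Ciart, a further repressor of CLOCK and BMAL1, was at 0.0725 to 4.89 scaled TPM in BGZ_L, and in KYDS+BGZ_L it was listed at 0 in 3 rats and reached 0.0732 in the highest (-2.0 ± 0.45, adjusted p = 0.0064). The cryptochromes Cry1 (0.69, adjusted p = 0.32) and Cry2 (-0.50, adjusted p = 0.281) did not pass, nor did Timeless (-0.85), Csnk1d (-0.66) and Csnk1e (-0.22).

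In the second loop, the repressor and its target lay on opposite sides. Nr1d1, which encodes REV-ERB alpha, was at 6.34, 6.46, 8.02, 13 and 11.1 scaled TPM in BGZ_L and at 0.651, 1.19, 1.56, 1.74 and 0.65 in KYDS+BGZ_L (-2.52 ± 0.30, adjusted p = 4.48e-05). Its paralogue Nr1d2 was lower as well (-1.06 ± 0.30, adjusted p = 0.0222), a call that was lost without BGZ_L 3 (adjusted p = 0.0623), KYDS+BGZ_L 1 (0.0621) or KYDS+BGZ_L 4 (0.0558). Arntl, the gene they repress, was at 0.0644, 0.0604, 0.482, 0.00774 and 0.117 in BGZ_L and at 1.74, 2.09, 1.75, 1.52 and 1.44 in KYDS+BGZ_L. Each rat given hydrocortisone was above each that was not (1.81 ± 0.27, adjusted p = 0.00053), at levels near the added constant of 0.5, which shrinks the fold change. Clock, the partner of Arntl, had 0.337 ± 0.104 and 0.746 ± 0.156 scaled TPM (0.57 ± 0.19, adjusted p = 0.0385) and kept its call in 2 of the 10 fits that left out 1 library, those without BGZ_L 5 or KYDS+BGZ_L 2 (adjusted p 0.0541 to 0.101 in the other 8). Arntl2 (-1.46, adjusted p = 0.274) and Rora (0.11, adjusted p = 0.863) did not pass.

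Of 9 clock output genes 5 were lower and 0 higher. Wee1, a kinase that delays entry into mitosis, was at 2.45 to 6.30 scaled TPM in BGZ_L and at 0.195 to 0.367 in KYDS+BGZ_L (-2.51 ± 0.29, adjusted p = 3.59e-05). Usp2, a deubiquitinase (-1.51 ± 0.35, adjusted p = 0.00808), and Noct, the gene of nocturnin (-1.25, adjusted p = 0.00778), were also lower. Nfil3, the repressor that competes for D-boxes, had a median of 3.51 in BGZ_L and 10.6 in KYDS+BGZ_L but did not pass (1.5 ± 0.58, adjusted p = 0.0774), and Bhlhe40 (-0.60) and Klf10 (-0.43) did not pass either. Dbp, Per2, Nr1d1 and Wee1 passed under all 3 other scalings. Without scaling Tef (-1.02, adjusted p = 0.146), Per3 (-1.73, 0.0599), Per1 (-0.93, 0.103), Usp2 (-0.96, 0.156), Noct (-0.94, 0.0726) and Nr1d2 (-0.48, 0.413) no longer passed, and with nuclear TPM Nr1d2 (-1.21, adjusted p = 0.183) and Clock (0.81, adjusted p = 0.268) missed the threshold. Clock also missed it with median-ratio scaling (adjusted p = 0.0504), the replicate number as a block (0.0501) and the mitochondrial covariate (0.0916). Nr1d2 missed it with the covariate (0.0673).

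**Figure D1:**
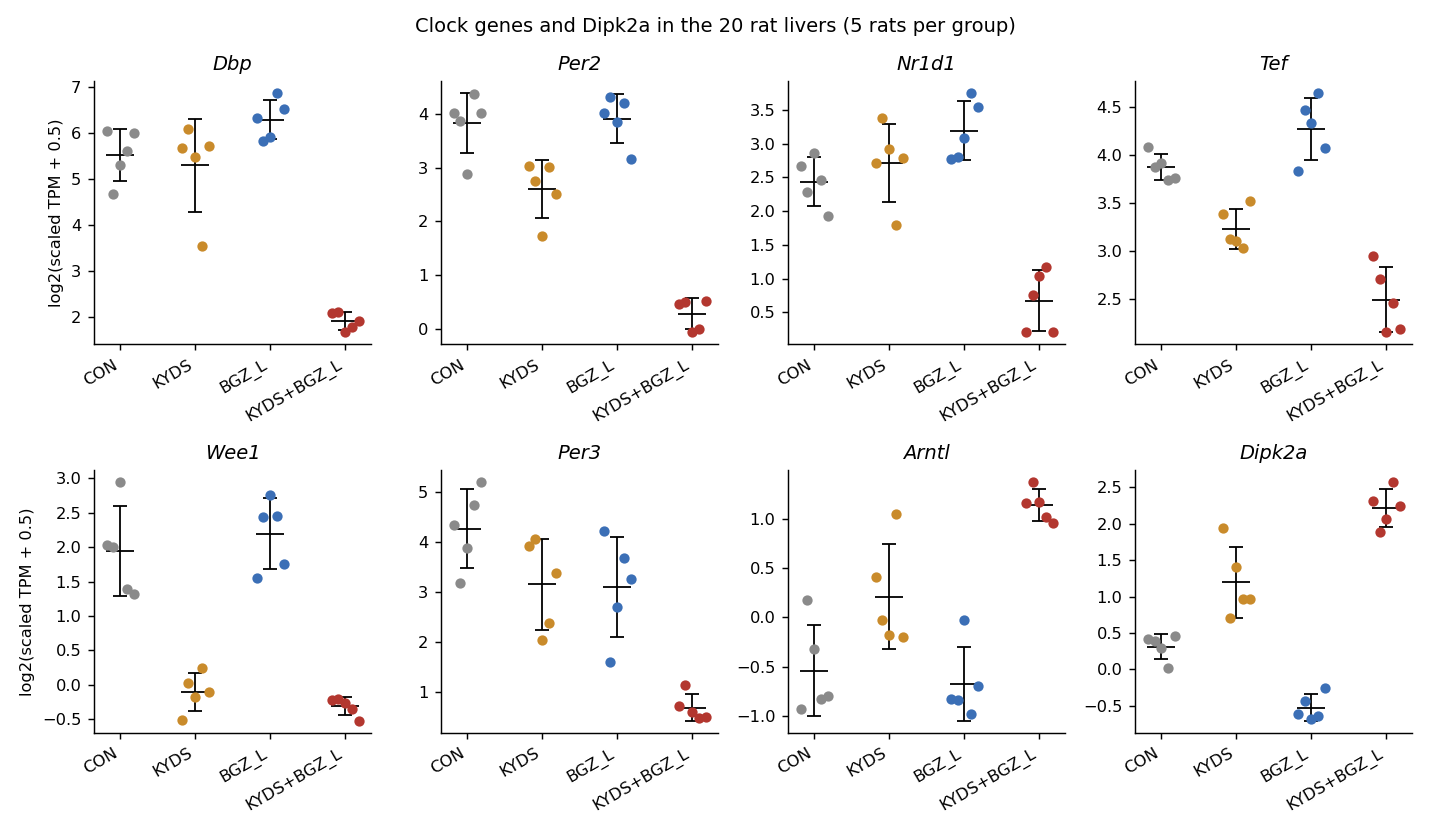
Level of 7 clock genes and Dipk2a in each rat (points, log2 of scaled TPM plus 0.5), with the group mean and SD (bars) for CON, KYDS, BGZ_L and KYDS+BGZ_L, 5 rats each. In the KYDS+BGZ_L rats Dbp, Per2 and Nr1d1 lie below every rat of the other 3 groups, and Dipk2a lies above every CON and BGZ_L rat.

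The DNA in front of some clock genes is shown, and each of those printed holds a motif of the loop. The 250 bases before the annotated start were read from RefSeq (build GRCr8) for the clock genes found in that table, with Arntl listed there as Bmal1, and searched on both strands for the E-box CACGTG, the D-box TTATGTAA and the core AGGTCA of the ROR element. The E-box letters occur in 5.59% of all 33469 promoters, the D-box letters in 0.828% and the ROR core in 14.1%. Per2 holds 1 D-box, Nr1d1 at the downstream one of its 2 listed starts and Tef hold 1 E-box each, Ciart holds 3 E-boxes, and Arntl holds 1 ROR core. In capitals are the motif letters, 5′ to 3′ on the strand of the gene, for Per2 (chr9:99496994-99497243, minus strand), Nr1d1 (chr10:84229455-84229704, minus), Tef (chr7:115206577-115206826, plus), Ciart (chr2:186112247-186112496, minus) and Arntl (chr1:176766078-176766327, plus).
Per2: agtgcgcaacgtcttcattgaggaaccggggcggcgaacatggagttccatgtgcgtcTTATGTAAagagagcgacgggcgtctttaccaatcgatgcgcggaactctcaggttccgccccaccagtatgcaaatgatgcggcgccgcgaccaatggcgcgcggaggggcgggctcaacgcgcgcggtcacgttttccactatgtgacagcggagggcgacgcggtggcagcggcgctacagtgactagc
Nr1d1: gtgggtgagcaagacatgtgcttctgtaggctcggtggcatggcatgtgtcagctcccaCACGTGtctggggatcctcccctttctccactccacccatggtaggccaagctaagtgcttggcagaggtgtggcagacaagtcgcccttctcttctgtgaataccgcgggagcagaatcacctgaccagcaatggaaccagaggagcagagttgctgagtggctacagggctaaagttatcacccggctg
Tef: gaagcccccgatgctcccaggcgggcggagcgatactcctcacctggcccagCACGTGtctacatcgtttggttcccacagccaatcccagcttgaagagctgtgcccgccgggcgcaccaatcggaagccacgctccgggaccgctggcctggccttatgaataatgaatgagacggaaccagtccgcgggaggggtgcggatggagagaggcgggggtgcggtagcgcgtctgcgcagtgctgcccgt
Ciart: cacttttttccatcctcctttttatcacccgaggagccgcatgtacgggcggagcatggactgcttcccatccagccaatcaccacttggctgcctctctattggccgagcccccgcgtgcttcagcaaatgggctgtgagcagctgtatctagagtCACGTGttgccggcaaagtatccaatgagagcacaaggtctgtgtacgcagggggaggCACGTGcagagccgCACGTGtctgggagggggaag
Arntl: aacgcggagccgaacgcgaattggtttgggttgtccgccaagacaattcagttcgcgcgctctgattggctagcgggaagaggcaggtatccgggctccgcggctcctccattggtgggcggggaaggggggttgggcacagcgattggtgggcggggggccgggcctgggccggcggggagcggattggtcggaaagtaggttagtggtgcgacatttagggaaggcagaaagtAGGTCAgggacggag
None of the 3 motifs was found in the same window of Dbp, Per1 or Per3, or of Clock at its listed starts, and Nr1d2 and Usp2 hold 1 ROR core each. The letters AGAACA, of the glucocorticoid receptor site, were searched for as well and occur in 17.5% of all promoters. Of the clock genes searched, only Clock holds these letters, with 1 match at its downstream start. A match says that the letters are there, and no binding was measured.

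Of the clock genes, Dbp, Nr1d1 and Per2 also differed between this contrast and the one without BGZ_L. With the hour of tissue collection unknown, treatment and a difference in hour between groups cannot be told apart here. The difference between the 2 effects (KYDS+BGZ_L minus BGZ_L, less KYDS minus CON) passed for 4 of 11958 genes (0.0335%, limma, with 449 at an unadjusted p under 0.05), 1 higher and 3 lower, and these were Dbp, Nr1d1, Per2 and Dipk2a. Dbp was at 65.3, 24.9, 38.9, 47.9 and 63.7 scaled TPM in CON and at 50.1, 67.7, 43.7, 11.1 and 51.8 in KYDS, where the groups overlapped and the effect was -0.23 ± 0.38 log2. The difference between the effects was -4.14 ± 0.54 for Dbp (adjusted p = 0.00305), -2.80 ± 0.42 for Nr1d1 (adjusted p = 0.0113) and -2.41 ± 0.43 for Per2 (adjusted p = 0.0482). Per2 was lower without BGZ_L too (-1.22 ± 0.30), and Wee1 was lower in both settings (-2.05 ± 0.29 without and -2.51 with BGZ_L), with a difference of -0.46 ± 0.41 that did not pass (adjusted p = 1).

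Dipk2a, a gene of a secreted kinase-like protein, was the higher gene of the 4, chosen after its values were seen. Its levels were 0.15, 0.242, 0.121, 0.139 and 0.34 scaled TPM in BGZ_L and 4.46, 3.19, 3.68, 5.48 and 4.25 in KYDS+BGZ_L (2.74 ± 0.22, adjusted p = 8.6e-07), with 0.89 ± 0.22 without BGZ_L and a difference of 1.86 ± 0.31 (adjusted p = 0.0325). Its call for the difference was kept in 6 of 20 fits that left out 1 library (adjusted p up to 0.107, without KYDS 5) and that of Per2 in 4 of 20 (up to 0.149, without KYDS+BGZ_L 3), while those of Dbp and Nr1d1 were kept in all 20. All 4 missed the threshold without scaling (adjusted p 0.258 to 0.955) and with nuclear TPM (0.0977 to 1), with the direction kept. Without scaling and with nuclear TPM they were -4.70 and -4.25 for Dbp, -3.34 and -3.08 for Nr1d1, -3.0 and -2.75 for Per2, and 1.33 and 2.26 for Dipk2a. Per2 also missed it with the mitochondrial covariate (-2.45, adjusted p = 0.07) and Dipk2a with the replicate number as a block (adjusted p = 0.1). Mif, a cytokine (1.59 with and -0.07 without BGZ_L), Mospd2 (1.27 and -0.05) and Osgin1 (2.11 and -0.11) did not pass for the difference. They had its smallest p among higher genes with a non-provisional symbol and a mean log2 level of at least 1 in the BGZ_L and KYDS+BGZ_L libraries.

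**Figure D2:**
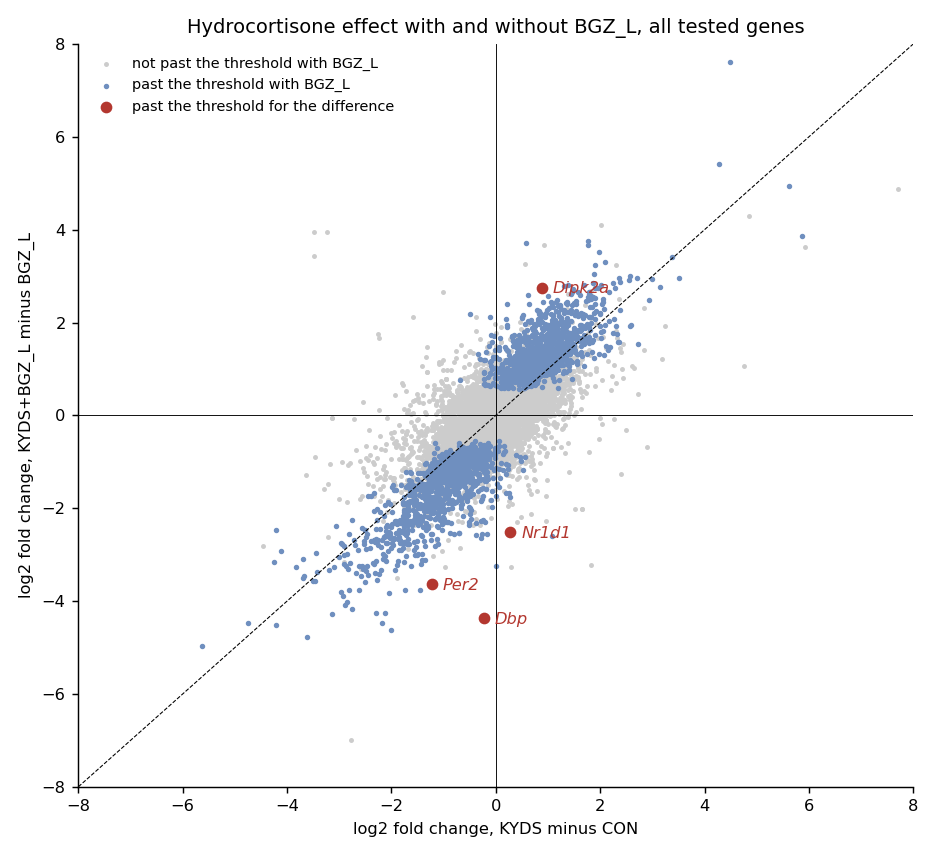
Hydrocortisone effect without BGZ_L (x axis, KYDS minus CON) against the effect with BGZ_L (y axis, KYDS+BGZ_L minus BGZ_L), in log2 units, for all 11958 tested genes, with equality as a dashed line. Blue genes passed with BGZ_L, and the 4 red genes are those whose 2 effects differed past the threshold.

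The other called genes mostly had the same sign in both settings, which share no library but share the fitted spread. Of the 1043 genes higher with BGZ_L, 1007 had a positive effect without it and 229 were also called there, with medians of 1.28 and 0.84 log2. Of the 1015 lower, 985 had a negative effect and 260 were also called, with medians of -1.51 and -0.99. Genes were chosen by passing in the first setting, so the medians of the 2 settings are not compared. The same shares over all tested genes were not counted, so these counts have no background beside them. The mitochondrial share was 65.6% to 90.1% in CON and 19.2% to 68.9% in KYDS. Its part in the shared signs was not tested.

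Among the classical glucocorticoid receptor targets that passed, more were lower than higher. Of 26 tested genes, 2 were higher and 7 lower, with a median of -0.55 log2. Nfkbia, the inhibitor of NF-kappa-B, was at 13.8, 18.6, 15.2, 19.6 and 12.6 scaled TPM in BGZ_L and at 6.16, 5.06, 7.78, 5.62 and 5.66 in KYDS+BGZ_L (-1.32 ± 0.19, adjusted p = 0.000435). Tsc22d3, the gene of the glucocorticoid-induced leucine zipper, went from 6.88 ± 2.60 to 2.18 ± 0.695 (-1.43 ± 0.34, adjusted p = 0.00821). Neither pair of groups overlapped.

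Ddit4, an inhibitor of mTORC1 signalling (-1.50 ± 0.29, adjusted p = 0.00307), Map3k6 (-1.02 ± 0.23, adjusted p = 0.00624), Per1, the transcription factor Klf9 (-0.94 ± 0.27, adjusted p = 0.0205) and Tat, tyrosine aminotransferase (-0.86 ± 0.27, adjusted p = 0.0346), made up the other lower members. Higher were Cdkn1a, the cell cycle inhibitor p21 (1.69 ± 0.45, adjusted p = 0.0158), and Angptl4, an inhibitor of lipoprotein lipase (2.16 ± 0.63, adjusted p = 0.0241). Fkbp5 (-0.59, adjusted p = 0.114), Sgk1 (-1.11, adjusted p = 0.0719), Pck1 (-0.86, adjusted p = 0.0744) and Dusp1 (1.17, adjusted p = 0.0602) did not pass. The call of Tat was lost without BGZ_L 1, 2 or 4 or KYDS+BGZ_L 1, 2, 3 or 5 (adjusted p 0.0533 to 0.0747), that of Angptl4 without BGZ_L 2 or 3 or KYDS+BGZ_L 1 or 4 (0.0537 to 0.073), and that of Klf9 without BGZ_L 4 (0.0515) or KYDS+BGZ_L 4 (0.0608). Without scaling 3 of the 26 genes were higher and 0 lower, with a median of -0.44 log2 relative to that of all genes, and with nuclear TPM 0 were higher and 3 lower.

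**Figure D3:**
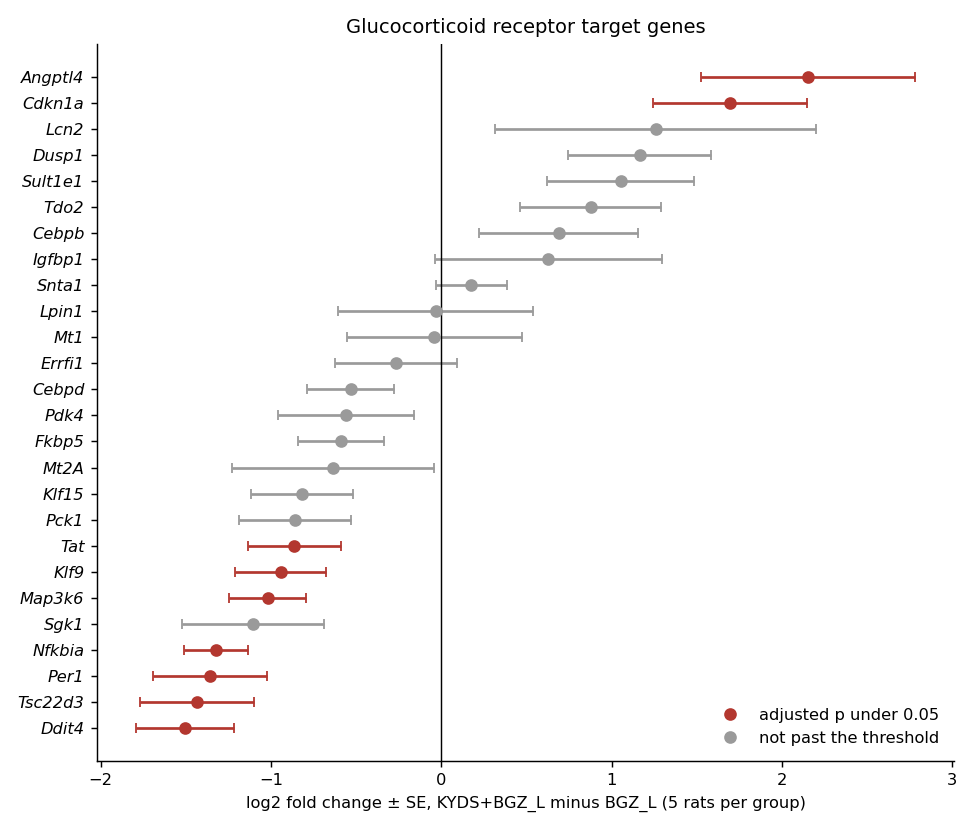
Log2 fold change ± SE (x axis, KYDS+BGZ_L minus BGZ_L, 5 rats per group) of the 26 tested glucocorticoid receptor targets, with genes past the threshold in red. Of the 9 red genes 7 lie below 0, with Ddit4 lowest at -1.50, and Angptl4 is highest at 2.16.

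The receptor gene itself did not pass, but a gene whose enzyme regenerates its ligand did. Nr3c1 had 1.86 ± 0.563 and 2.60 ± 0.815 scaled TPM (0.39 ± 0.26, adjusted p = 0.308). Hsd11b1, whose enzyme turns inactive keto steroid back into active glucocorticoid, was at 82.5, 26.9, 18.9, 28.4 and 36.5 in BGZ_L and at 163, 114, 89.7, 184 and 210.2 in KYDS+BGZ_L (2.09 ± 0.37, adjusted p = 0.00202), with no overlap. Serpina6, the plasma carrier of glucocorticoid, went from 23.4 ± 5.14 to 99.4 ± 52.7 (1.93 ± 0.59, adjusted p = 0.0293) and lost its call without BGZ_L 2, 3 or 4 or KYDS+BGZ_L 1 or 4 (adjusted p 0.0559 to 0.0856). Of 14 tested genes for the receptor and for glucocorticoid metabolism these 2 were higher and 0 lower (14.3% called against 17.2% over all genes), and Hsd11b1 alone passed in those 5 fits.

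Glucose genes moved in both directions. Gckr, a regulator of glucose handling in hepatocytes, was at 5.35, 2.59, 5.55, 4.64 and 8.60 scaled TPM in BGZ_L and at 43.5, 90.6, 63.9, 45.7 and 59.1 in KYDS+BGZ_L (3.42 ± 0.40, adjusted p = 4.48e-05). Pc, pyruvate carboxylase, went from 13.1 ± 3.99 to 32.7 ± 3.72 (1.32 ± 0.22, adjusted p = 0.00173) and Pygl, liver glycogen phosphorylase, from 4.42 ± 0.995 to 12 ± 1.56 (1.36 ± 0.20, adjusted p = 0.000603), both without overlap. G6pc, the last step of glucose release, was at 16 in BGZ_L 1 and at 0.101 to 0.978 in the other 4 BGZ_L rats, against 10.7 to 52.4 in KYDS+BGZ_L (3.85 ± 0.99, adjusted p = 0.0131). BGZ_L 1 alone made those groups overlap.

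Ppargc1a, the coactivator that drives gluconeogenic genes, was lower (-3.01 ± 0.63, adjusted p = 0.0047), as was Got1, cytosolic aspartate aminotransferase, at 62.0 ± 17.7 and 14.7 ± 4.33 scaled TPM (-2.03 ± 0.33, adjusted p = 0.00109). Of 14 gluconeogenesis genes 3 were higher and 2 lower, with a median of 0.55. Of 18 genes for glucose sensing and glycolysis 3 were higher and 0 lower (16.7% called, near the 17.2% over all genes), Pklr among them (1.33 ± 0.34, adjusted p = 0.0127). With the mitochondrial covariate G6pc (3.47, adjusted p = 0.0735) and Pklr (1.27, adjusted p = 0.0547) missed the threshold.

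Amino acid breakdown was split. Of 40 tested genes 5 were higher and 7 lower, with a median of -0.04. Kynu, kynureninase of the tryptophan pathway, was at 3.50, 4.35, 5.36, 5.64 and 9.01 scaled TPM in BGZ_L and at 38.6, 37.0, 32.9, 37.8 and 33.6 in KYDS+BGZ_L (2.65 ± 0.26, adjusted p = 1.07e-05). Hgd, of tyrosine breakdown, was higher as well (1.30 ± 0.31, adjusted p = 0.00959). Sds, serine dehydratase, went from 78.7 ± 24.7 to 13.3 ± 5.68 (-2.59 ± 0.54, adjusted p = 0.00452) and Gpt2, mitochondrial alanine aminotransferase, from 15.5 ± 2.11 to 4.25 ± 1.34 (-1.79 ± 0.24, adjusted p = 0.000229). All 4 of these genes had groups that did not overlap. Without scaling the list had 7 higher and 0 lower, with Sds at -1.80 (adjusted p = 0.0825) and Gpt2 at -1.04 (adjusted p = 0.137).

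Among the lipid genes that passed, more were higher than lower. Insig2, which retains the SREBP complex in the endoplasmic reticulum, was at 1.74, 2.50, 3.77, 2.44 and 2.94 scaled TPM in BGZ_L and at 63.9, 12.2, 21.6, 36.3 and 15.9 in KYDS+BGZ_L (3.04 ± 0.39, adjusted p = 0.000145). Of 17 lipogenesis genes 8 were higher and 2 lower, with a median of 1.13, and 6 passed without KYDS+BGZ_L 4. Elovl5, a fatty acid elongase, was higher (1.59 ± 0.36, adjusted p = 0.00726), and Thrsp, the lipogenic factor Spot 14, was lower in every rat (45.7 ± 14.9 and 12.2 ± 2.80 scaled TPM, -1.83 ± 0.35, adjusted p = 0.00304). Fasn, fatty acid synthase, missed the threshold (0.90, adjusted p = 0.191), as did the desaturase Scd (1.22, adjusted p = 0.111).

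Of 21 cholesterol synthesis genes 5 were higher and 0 lower, with 21 above 0 and a median of 1.06. Dhcr7, the last reductase of the pathway, went from 1.26 ± 0.862 to 12.7 ± 8.43 scaled TPM (2.81 ± 0.61, adjusted p = 0.00556), and Sc5d (2.44 ± 0.53, adjusted p = 0.0055) and Nsdhl (1.43 ± 0.32, adjusted p = 0.00657) also had groups that did not overlap. Hmgcs1, an early step, was higher by 2.25 (adjusted p = 0.0116). The count was 8 without KYDS+BGZ_L 2.

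Of 22 genes for apolipoproteins and lipoprotein handling 11 were higher and 0 lower (median 1.38). Apoc1, an inhibitor of lipoprotein uptake, had the largest fold change of all named genes. Its level was 2.36, 8.08, 0, 1.42 and 3.42 scaled TPM in BGZ_L (listed at 0 in BGZ_L 3) and 842, 97.5, 299.9, 2770.2 and 375 in KYDS+BGZ_L (7.60 ± 1.69, adjusted p = 0.00666), so the groups lay far apart but the rats given hydrocortisone also differed widely among themselves. Apoc1 was at 0.781, 359, 2.06, 1.33 and 375 in CON 1 to 5, so it also varied widely without hydrocortisone. In KYDS 1 to 5 it was at 585.6, 219, 2941.5, 8.62 and 1302. Lipc, hepatic lipase, was higher without overlap (1.67 ± 0.30, adjusted p = 0.00237) and Mttp, which loads lipid onto apolipoprotein B, was higher with overlap (1.83 ± 0.39, adjusted p = 0.00511). The count fell to 7 without BGZ_L 2 or KYDS+BGZ_L 1 and to 6 without KYDS+BGZ_L 4.

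For phospholipid, Chka, choline kinase, was at 1.88 ± 0.755 and 16 ± 2.05 scaled TPM (2.85 ± 0.41, adjusted p = 0.00047), and Pemt, which makes phosphatidylcholine by methylation, at 9.42 ± 2.70 and 81.9 ± 62.6 (2.75 ± 0.60, adjusted p = 0.00559). Lpcat1, a lysophosphatidylcholine acyltransferase, was lower (-1.92, adjusted p = 0.00414). Of 23 glycerophospholipid genes 5 were higher and 1 lower (26.1% called against 17.2% over all genes). Of 30 genes for fatty acid oxidation 11 were higher, among them the peroxisomal enzyme Hsd17b4 (1.62 ± 0.27, adjusted p = 0.00169) and the thioesterase Acot2 (1.78 ± 0.34, adjusted p = 0.00275). The 1 lower gene was Ppara, the receptor that switches that programme on (-1.99 ± 0.59, adjusted p = 0.027), a call lost without BGZ_L 1 or 4 or KYDS+BGZ_L 1 or 4 (adjusted p 0.0532 to 0.083). Cpt1a, the entry step of mitochondrial oxidation, was at 0.04 ± 0.41 and did not pass. The list had 6 calls when KYDS+BGZ_L 1 was left out and 7 when KYDS+BGZ_L 4 was.

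Of 26 genes for bile acid synthesis and transport 8 were higher and 1 lower, with a median of 0.56. Abcb11, the bile salt export pump, was at 12.1, 2.22, 3.92, 3.79 and 6.87 scaled TPM in BGZ_L and at 26.6, 22.2, 27.8, 25.0 and 22.2 in KYDS+BGZ_L (2.21 ± 0.41, adjusted p = 0.00269). Slco1a4, an uptake carrier, was higher by 2.51 ± 0.49 (adjusted p = 0.00347), also without overlap. Cyp7a1, the rate-limiting enzyme of bile acid synthesis (0.25 ± 0.65, adjusted p = 0.82), and Cyp8b1 (0.47 ± 0.54, adjusted p = 0.588) did not pass. Cyp7b1, of the alternative route, was lower (-1.48 ± 0.41, adjusted p = 0.0191), a call lost without BGZ_L 2 (adjusted p = 0.0552), KYDS+BGZ_L 1 (0.0581) or KYDS+BGZ_L 4 (0.0626). Cyp39a1, an oxysterol hydroxylase that was listed with other cytochrome P450 genes, was higher (2.06 ± 0.46, adjusted p = 0.00623). The higher members of the list included the uptake carrier Slc10a1 (2.44, adjusted p = 0.00954) and the conjugating enzyme Baat (1.40, adjusted p = 0.014).

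Among the drug metabolism genes that passed, more were higher than lower. Cyp2b1, the classical phenobarbital-responsive cytochrome P450 of the rat, was at 18.1, 2.42, 0.693, 8.31 and 5.38 scaled TPM in BGZ_L and at 217, 28.6, 64.2, 91.0 and 41.0 in KYDS+BGZ_L (3.77 ± 0.68, adjusted p = 0.0024). Cyp3a18 differed by a similar amount (3.72 ± 0.78, adjusted p = 0.0046), and both had groups that did not overlap. Nr1i2, the gene of the receptor PXR that controls such genes, was lower (-1.17 ± 0.38, adjusted p = 0.041), a call lost without BGZ_L 1, 3 or 4 or KYDS+BGZ_L 1, 4 or 5 (adjusted p 0.0625 to 0.112). Of 14 genes for CAR, PXR and their P450 targets 6 were higher and 1 lower, and the number passing fell to 3 without KYDS+BGZ_L 1 or KYDS+BGZ_L 4 and to 4 without BGZ_L 3, BGZ_L 4 or KYDS+BGZ_L 5.

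Ces2c, a carboxylesterase, went from 1.10, 0.254, 0.904, 0.317 and 1.15 scaled TPM in BGZ_L to 74.7, 28.0, 43.0, 117 and 29.9 in KYDS+BGZ_L (5.42 ± 0.58, adjusted p = 2.25e-05). Cyp1a2 (2.59 ± 0.58, adjusted p = 0.00683) and Ugt1a6, a glucuronosyltransferase (2.49 ± 0.49, adjusted p = 0.00364), both targets of the aryl hydrocarbon receptor, were higher, while Cyp1a1 did not pass (1.39 ± 0.67, adjusted p = 0.158). Conjugating enzymes followed with Ugt2b15 (2.73 ± 0.61, adjusted p = 0.0064), Gsta2 (2.78 ± 0.66, adjusted p = 0.00883) and Mgst1 (2.15, adjusted p = 0.00992). Cyp2c22 was higher by 2.40 ± 0.52 (adjusted p = 0.00553), and the male-specific Cyp2c11 by 1.58 ± 0.53 (adjusted p = 0.0449), which was lost without BGZ_L 2, 3, 4 or 5 or KYDS+BGZ_L 1, 4 or 5 (adjusted p 0.0672 to 0.125). Several of these genes belong to families of closely similar sequence, and how reads shared between copies were assigned is not stated. With the mitochondrial covariate Gsta2 (2.16, adjusted p = 0.0569) and Mgst1 (1.45, adjusted p = 0.0525) missed the threshold. Glutathione S-transferases had 4 of 19 higher and 0 lower (21.1% called, near the 17.2% over all genes), with 2 without KYDS+BGZ_L 4 and 0 with the covariate. Carboxylesterases had 4 of 8 higher, with 2 without KYDS+BGZ_L 1 and 7 passing without BGZ_L 1. Other cytochrome P450 genes had 9 of 20 higher and 1 lower, with 4 passing without KYDS+BGZ_L 1. Glucuronosyltransferases and sulfotransferases had 4 of 12 higher and 0 lower.

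Of 16 NRF2 targets, the antioxidant genes, 7 were higher and 0 lower, with a median of 0.92. Osgin1, an oxidative stress response gene, was at 55.1, 33.5, 51.8, 22.7 and 54.3 scaled TPM in BGZ_L and at 209, 275, 172, 147 and 129.9 in KYDS+BGZ_L (2.11 ± 0.38, adjusted p = 0.00222). Tkt, transketolase (1.16 ± 0.25, adjusted p = 0.00535), and Txnrd1, thioredoxin reductase (1.07 ± 0.23, adjusted p = 0.00556), also rose without overlap. Nqo1 was higher by 1.38 ± 0.43 (adjusted p = 0.0329) and lost its call without BGZ_L 1, 2 or 4 or KYDS+BGZ_L 1 or 4 (adjusted p 0.0583 to 0.106). With nuclear TPM only Osgin1 of the 16 passed (adjusted p = 0.0131).

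Among genes of secreted plasma proteins that passed, most were higher. Alb, albumin, was at 2693, 1494, 1518, 2396 and 2169.9 scaled TPM in BGZ_L and at 19274, 4414, 6305, 22444 and 11690 in KYDS+BGZ_L (2.42 ± 0.59, adjusted p = 0.00965). Of 13 carrier protein genes 8 were higher and 0 lower (median 1.81), with the vitamin D carrier Gc (2.17 ± 0.40, adjusted p = 0.0026) and the heme carrier Hpx (2.62 ± 0.62, adjusted p = 0.00859). Of 34 coagulation and complement genes 19 were higher and 1 lower (median 1.34), such as F13b (2.12 ± 0.45, adjusted p = 0.00507) and C8b (2.29 ± 0.49, adjusted p = 0.00521). Of 23 acute phase genes 10 were higher and 2 lower (median 1.15). Orm1 (2.86 ± 0.54, adjusted p = 0.00275) and the fibrinogen chain Fga (2.82 ± 0.54, adjusted p = 0.00287) led the higher members, and the 2 lower were Il6r, the interleukin-6 receptor (-1.59 ± 0.34, adjusted p = 0.00499), and Stat3, its signal transducer (-1.30 ± 0.33, adjusted p = 0.0131).

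Within the hydrocortisone group these genes varied with the library. KYDS+BGZ_L 1 and 4, which had the lowest mitochondrial shares (26.6% and 35.1%), had the highest Alb, Gc, Hpx, Orm1, Fga and Apoc1. In bulk tissue fewer cells of a type and less RNA per cell cannot be told apart. The carrier protein count fell to 4 when either KYDS+BGZ_L 1 or KYDS+BGZ_L 4 was left out, and the coagulation and complement count to 12 without either and to 13 without BGZ_L 3. With the mitochondrial covariate 3 of 13 carrier genes and 7 of 34 coagulation and complement genes passed, Alb among them at 1.57 (adjusted p = 0.0388), and Stat3 did not (-0.94, adjusted p = 0.0847). The part of the mitochondrial share in the rest of the difference was not tested.

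**Figure D4:**
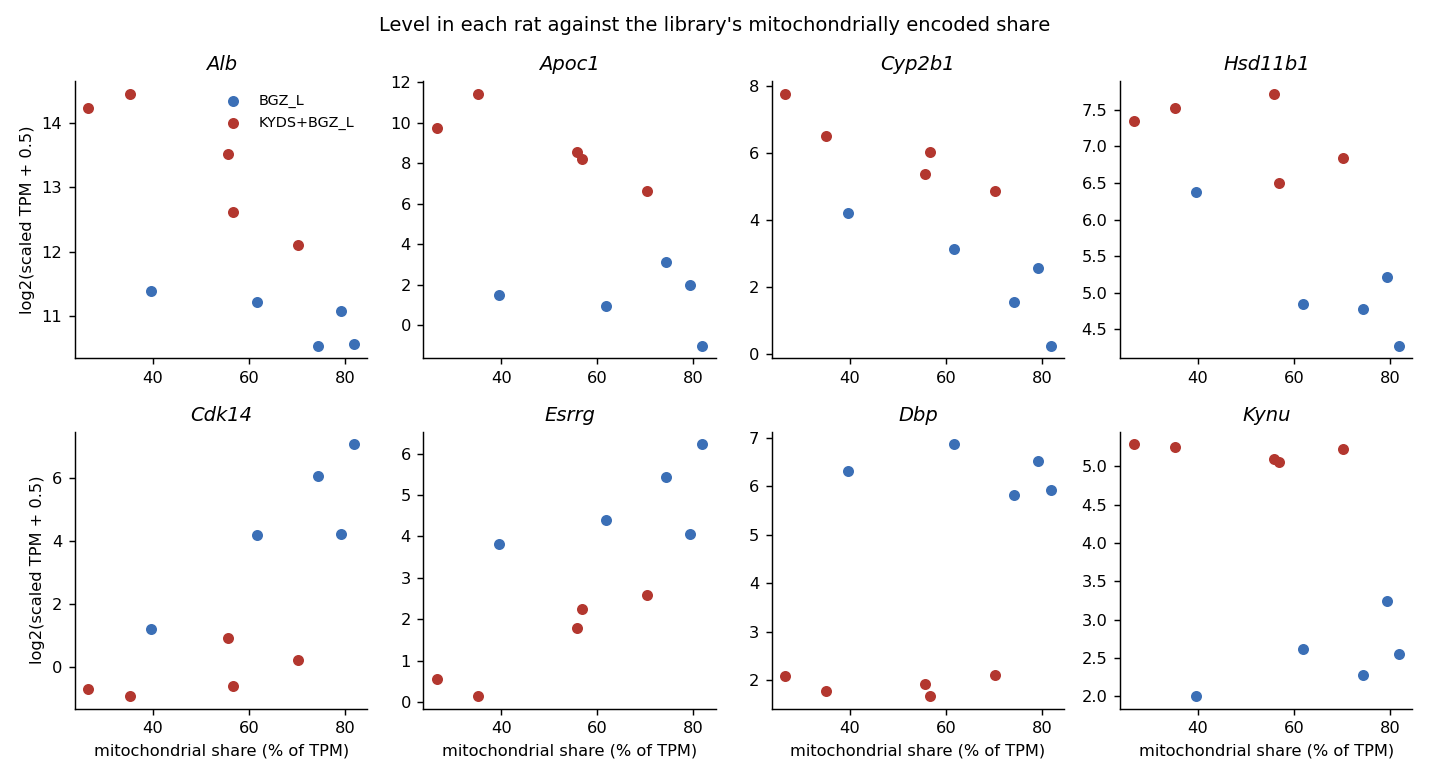
Level of 8 genes (y axis, log2 of scaled TPM plus 0.5) against the mitochondrially encoded share of each library (x axis, percent of TPM) in the 5 BGZ_L rats (blue) and the 5 KYDS+BGZ_L rats (red). Alb, Apoc1 and Cyp2b1 are higher in KYDS+BGZ_L libraries with a low share, and Cdk14 and Esrrg are lower there. The groups do not overlap for any of these genes, nor for Dbp and Kynu. The lowest share is 39.6% in BGZ_L and the highest is 70.2% in KYDS+BGZ_L, so the groups cannot be compared outside that range.

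Among hormone genes of the liver 9 of 17 were higher and 0 lower. Fgf21, a fasting and stress hormone, was at 0.365, 0.918, 0.241, 1.04 and 1.62 scaled TPM in BGZ_L and at 7.83, 6.83, 3.57, 7.44 and 6.61 in KYDS+BGZ_L (2.44 ± 0.44, adjusted p = 0.00237), with no overlap. Agt, angiotensinogen, was higher by 2.49 ± 0.56 (adjusted p = 0.00682). The count was 4 without KYDS+BGZ_L 4 and 2 with the mitochondrial covariate. On the growth hormone axis Socs2, a feedback inhibitor of the receptor, was higher (2.41 ± 0.59, adjusted p = 0.0104), and Igf1 (1.57 ± 0.42, adjusted p = 0.0158) and the receptor gene Ghr (1.53 ± 0.40, adjusted p = 0.0141) were higher with overlap. With KYDS+BGZ_L 4 left out neither Igf1 (adjusted p = 0.0528) nor Ghr (0.0504) passed, and Igf1 also did not with KYDS+BGZ_L 1 left out (0.0533). Of 20 genes of the axis 4 were higher and 0 lower (20% called, near the 17.2% over all genes), with 2 left when KYDS+BGZ_L 1 was omitted and 1 when KYDS+BGZ_L 4 was.

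Iron genes included Hjv, the hemojuvelin co-receptor, at 4.40 ± 1.22 and 14.8 ± 3.85 scaled TPM (1.65 ± 0.27, adjusted p = 0.0015), Hfe (1.91 ± 0.34, adjusted p = 0.00219) and the hormone hepcidin, Hamp (2.27, adjusted p = 0.0168, and 0.058 without KYDS+BGZ_L 4). Among 22 endoplasmic reticulum chaperone genes 9 were higher and 0 lower, including the lectin chaperone Canx (1.26 ± 0.30, adjusted p = 0.008) and Sdf2l1 (1.77 ± 0.42, adjusted p = 0.00883), and the count was 5 with BGZ_L 3 left out, 3 with KYDS+BGZ_L 1 left out and 2 with KYDS+BGZ_L 4 left out, and 1 with nuclear TPM or with the mitochondrial covariate. The antigen presentation genes Tap1 (1.38 ± 0.28, adjusted p = 0.00379) and B2m (1.93 ± 0.39, adjusted p = 0.00384) were among 4 of 28 interferon and immunoproteasome genes that were higher, with 0 lower and a median of -0.01 (14.3% called against 17.2% over all genes). By limma 0 of 16 heat shock genes (4 at an unadjusted p under 0.05) and 0 of 47 cytosolic ribosomal protein genes (0 unadjusted) passed. With BGZ_L 1, BGZ_L 5 or KYDS+BGZ_L 2 left out 1 heat shock gene passed, as did 1 ribosomal protein gene without BGZ_L 1.

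Of 24 nuclear receptor genes 2 were higher and 5 lower, with a median of -0.07. Esrrg, the oestrogen-related receptor gamma, was at 13.5, 42.6, 74.5, 20.7 and 16.1 scaled TPM in BGZ_L and at 0.971, 5.47, 4.25, 0.602 and 2.93 in KYDS+BGZ_L (-3.33 ± 0.62, adjusted p = 0.00261), without overlap. The thyroid hormone receptors Thra (-1.18 ± 0.31, adjusted p = 0.0138) and Thrb (-1.44 ± 0.40, adjusted p = 0.0203) were lower, the latter lost without BGZ_L 4 (0.055), KYDS+BGZ_L 1 (0.0626) or KYDS+BGZ_L 4 (0.0683). The number passing was 3 without KYDS+BGZ_L 1 or KYDS+BGZ_L 4 and 4 without BGZ_L 4. Without scaling 2 were higher and 1 lower, and with the mitochondrial covariate 1 was higher and 1 lower.

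**Figure D5:**
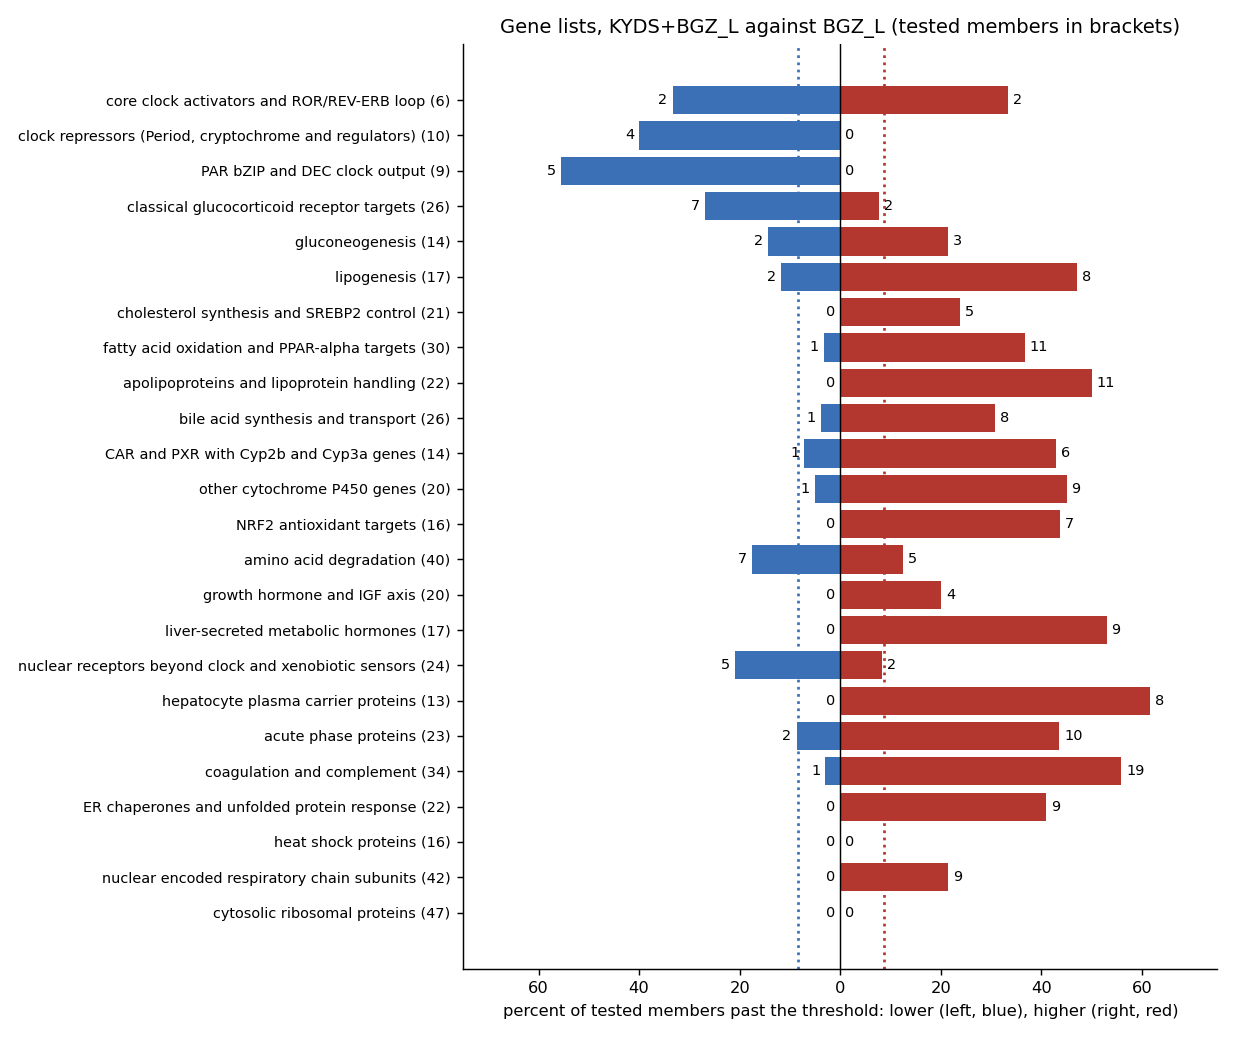
Share of tested members past the threshold that were higher (right, red) or lower (left, blue) in KYDS+BGZ_L than in BGZ_L, for 24 gene lists with the number of tested members in brackets and counts at the bar ends. Dotted lines mark the shares over all tested genes, 8.72% higher and 8.49% lower. The clock repressor and clock output lists have lower members only, and the carrier protein, coagulation and complement, and hormone lists reach furthest to the right.

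Among the 10 largest falls of genes that passed, reached a minimum level and had groups without overlap were Cdk14, a cyclin-dependent kinase (-4.77 ± 0.97, adjusted p = 0.00414), the unconventional myosin Myo15a (-4.47 ± 1.12, adjusted p = 0.0118), Akr1c19, an aldo-keto reductase (-4.28 ± 0.89, adjusted p = 0.00464), Ehbp1l1 (-4.27), the amino acid transporter Slc7a12 (-4.17), Fam227b (-4.08), Nrxn3, a neurexin (-3.76), and Zmym6 (-3.75). All of these but Slc7a12 had their highest level in BGZ_L 3, which had the highest mitochondrial share (81.9%). Cdk14 was at 1.80, 65.4, 133, 17.6 and 18.1 scaled TPM in BGZ_L 1 to 5, whose lowest value was in the library with the lowest share, and at 0.022 to 1.37 in KYDS+BGZ_L. Nmrk1, nicotinamide riboside kinase, had a tighter spread, at 18.9, 37.0, 52.7, 35.1 and 24.1 against 1.32, 3.07, 2.00, 0.947 and 2.27 (-3.80 ± 0.40, adjusted p = 2.21e-05). With the covariate Myo15a (-3.88, adjusted p = 0.0735) and Slc7a12 (-3.18, adjusted p = 0.0727) missed the threshold. Genes called lower also spanned more genome, with a median span of 52.6 kb against 17.6 kb for genes called higher and 23.6 kb for genes not called (882, 940 and 8633 genes with a name and a span in RefSeq, build GRCr8).

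Among the 10 largest rises under the same limits, beside those above, were the histone gene H3f3c (3.68 ± 0.51, adjusted p = 0.000324), which has near-identical copies, Vom2r37, a vomeronasal receptor gene (3.30 ± 0.39, adjusted p = 4.48e-05), and the kinase Nim1k (2.97 ± 0.40, adjusted p = 0.000259). In all 3 the lowest rat given hydrocortisone was above the highest that was not.

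Some markers of other liver cells differed as well. Ptprc, the pan-leukocyte marker CD45, was at 8.20, 21.2, 16.3, 18.0 and 14.8 scaled TPM in BGZ_L and at 0.715, 4.25, 2.63, 0.675 and 2.71 in KYDS+BGZ_L (-2.74 ± 0.46, adjusted p = 0.00169). Ptprc does not mark lymphocytes alone, but it was placed in the list of T, NK and B cell markers. It was the 1 of 8 tested genes of that list to pass (2 without BGZ_L 4 or BGZ_L 5), 12.5% against 17.2% of all genes. The summed list level was 18.5 to 30.2 against 6.57 to 11.1. That sum includes Ptprc, so it is not separate from the fall of Ptprc, and the list was not summed without it. Of 12 macrophage markers 3 were higher and 0 lower, but only 5 of the 12 had a fold change above 0 and the median was -0.10 log2. The higher ones included Cd14 (1.84 ± 0.39, adjusted p = 0.00494) and the scavenger receptor Cd163 (1.36 ± 0.40, adjusted p = 0.026, lost without BGZ_L 3 or 4 or KYDS+BGZ_L 1 or 4 at adjusted p 0.0567 to 0.0852, when 1 of the 12 passed). The summed macrophage level was 76.8 to 894 in BGZ_L and 82.9 to 294 in KYDS+BGZ_L. Of 15 stellate cell markers Pdgfrb, a growth factor receptor, was the 1 that passed (2 without BGZ_L 1; 2.20 ± 0.33, adjusted p = 0.000583), with sums of 60.1 to 106 and 73.5 to 84.3. Among 4 tested neutrophil markers S100a8 (1.98, adjusted p = 0.0437) and S100a9 (1.92, adjusted p = 0.022) were higher, the first call lost in 7 of 10 fits without 1 library (adjusted p 0.0575 to 0.128, kept without BGZ_L 2, BGZ_L 5 or KYDS+BGZ_L 1) and the other without BGZ_L 3 (0.0674), BGZ_L 4 (0.0509) or KYDS+BGZ_L 4 (0.0573), while Cxcr2 was listed at 0 in all 10 libraries. By limma 0 of 12 endothelial markers (2 at an unadjusted p under 0.05, and 1 adjusted call without BGZ_L 1 or KYDS+BGZ_L 2) and 0 of 8 cholangiocyte markers (2 unadjusted) passed.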

How the data were processed

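Liver RNA of 20 male rats, 5 per group, was sequenced after Trizol extraction, DNase I treatment and TruSeq library preparation, and read 1 alone was analysed, per the labels' protocols. The file name of the deposited table says raw counts. Its values carry 2 decimals and sum to 914343 to 983962 per library, so the authors' values were read as TPM, with depth unknown. The aligner is not given in the sources used here, and the submitters' processing notes name mouse builds (GRCm38, mm10, GRCm39) for rat libraries. TPM was scaled by a trimmed mean of log ratios (30% and 5% trimmed) and 0.5 was added before log2. Genes of at least 0.5 scaled TPM in 5 libraries entered 1 limma fit (limma 3.58.1, R 4.3.3, trended robust prior, 4 group means, 16 residual degrees of freedom), two-sided, Benjamini-Hochberg threshold 0.05. Library measures had exact permutation tests.

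The members and lists were chosen with earlier results of these data known. Named were the 10 largest changes each way among non-overlapping genes, up to 3 genes per list and direction by p, all clock genes and glucocorticoid receptor targets, a set of fixed liver genes and the top genes of the difference between effects; Baat, Dipk2a, Hamp, Hmgcs1 and Slc10a1 were named after their values were seen. Some genes within the rule are not reported here. Alternatives were other scalings, constants, filters, array weights, a covariate, a replicate block, the 10 libraries alone and single libraries left out. Rats with the same replicate number were not treated as pairs in the main fit. Of 5 same-numbered pairs 1 correlated above 0.1, which cannot show whether those rats shared a cage or day. Labels do not say whether rats shared cages or days, and p-values measure the spread between these rats. Promoters came from RefSeq (GRCr8), and figures were drawn with matplotlib 3.10.9.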

Additional observations from a re-analysis of the deposited data

Results flagged for a closer look

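In 272 groups of 5 rats looked at for outlying values, 15 had a highest or lowest rat whose gap to its neighbour exceeded the 95% limit of Dixon's test; chance flags about 1 in 20 groups. Among clock genes these were Per1 in BGZ_L 1 (3.84 scaled TPM, the other 4 rats 0.701 to 1.21), Cry2 in BGZ_L 1 (3.89, others 1.68 to 2.11), Hlf in KYDS+BGZ_L 1 (7.02, others 3.44 to 4.19), Ciart in KYDS+BGZ_L 5 (0.0732, others 0 to 0.0174), Arntl2 in BGZ_L 5 (1.90, others 8.29 to 12.3) and Timeless in KYDS+BGZ_L 4 (2.28, others 4.37 to 5.18). BGZ_L 1 also stood apart for the glucose genes G6pc (16, others 0.101 to 0.978) and Pc (20.1, others 10.3 to 12.5). BGZ_L 3 was low for Sds (37.8, others 79.4 to 104) and Canx (2.71, others 5.40 to 6.16), and BGZ_L 2 was high for Cyp7b1 (14.4, others 5.49 to 6.43). KYDS+BGZ_L 3 was low for Pygl (9.32, others 12.2 to 13.2) and Fgf21 (3.57, others 6.61 to 7.83). KYDS+BGZ_L 4 was high for Mospd2 (7.85, others 4.26 to 4.76) and low for Cpt1a (9.62, others 20.5 to 23.9).

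The hydrocortisone effect differed between rats with and without BGZ_L, by a limma test of the difference itself, for Dbp (-4.14 log2), Nr1d1 (-2.80), Per2 (-2.41) and Dipk2a (1.86). The hour of tissue collection is not stated, and its part was not tested.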

How the results depend on the processing

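The 2058 calls became 577 with TPM over nuclear genes, 668 with the mitochondrial covariate and 1366 without BGZ_L 3 and CON 2, an alternative chosen after seeing the data; 1 library left out gave 1103 to 2525. The 4 genes whose effect differed between rats with and without BGZ_L became 0 without scaling, 0 with nuclear TPM, 2 with a constant of 1, 9 with array weights, 1 without BGZ_L 3 and CON 2, and 2 to 5 without 1 library. The mitochondrial share differed by -18.5 percentage points, -25.4 to -12.9 without 1 library, and the scaling factor by 0.484, 0.362 to 0.628 without 1 library and 0.53 with median-ratio scaling. With the replicate number as a block 1887 genes passed and 112 of the 114 called genes named in the text kept their call. In the labels only a shared number ties these rats. Of those 114, 112 kept their call with median-ratio scaling, 90 without scaling, 79 with nuclear TPM and 86 with the covariate, 95 kept it whichever library was left out, and 62 under all settings. Both unscaled and nuclear fold changes of all 114 had the same sign as in the scaled data.

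Genes that did not pass changed sign. Without scaling Cry2 was 0.10, Hlf 0.32, Csnk1d 0.095, Csnk1e 0.40 and Klf10 0.0057. With the covariate Cyp7a1 was -0.22, Cyp8b1 -0.26 and Cpt1a -0.082, and Cpt1a was -0.028 with median-ratio scaling. Without 1 library Cyp7a1 was -0.087 to 0.64, Rora -0.037 to 0.26 and Cpt1a -0.13 to 0.28, and without BGZ_L 3 and CON 2 Cyp7a1 was -0.066, Rora -0.021 and Cpt1a -0.11. The causes were not tested. TPM keeps no depth, so how depth limits low genes such as Arntl and Ciart is unknown.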
